A study of Homo sapiens with 6 samples.

Results

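Cytochrome P450 genes encode haem-containing monooxygenases, and 55 of the 20007 protein-coding genes in the GENCODE annotation of hg38 belong to them. Members were all protein-coding genes whose symbol is CYP followed by a number, with CYP51A1 left out, and the readthrough gene CYP3A7-CYP3A51P was not counted because it repeats the start of CYP3A7. Families 1 to 4 held 36 members and families 7 and above held 19. These enzymes insert an oxygen atom into their substrates with electrons passed on by partner proteins. Many members of families 1 to 4 are enzymes of the liver that oxidise drugs, foreign compounds and fatty acids. Most members of the higher families act on sterols, bile acids, steroid hormones, vitamin D or retinoids, often in only a few tissues.

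Accessible chromatin was mapped by ATAC-seq, in which the Tn5 transposase cuts and tags open DNA, in HLF, an established line of human liver cancer cells. DMSO-treated cells (the vehicle group) and cells given 5 μM SNDX-5613, an inhibitor that separates menin from the histone methyltransferase MLL1, were each measured in 3 libraries. All 6 came from the same line and were analysed as 1 batch. The labels give 24 h of treatment while the study describes a longer one, and the time behind these libraries is not certain. Each replicate was described as a dish of cells divided between treatment and vehicle, so p-values measure the spread between libraries of 1 line. The measurements are lists of called peaks, and read counts were not analysed here.

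A promoter peak was a summit within 1 kb of any annotated start site of the gene, and a gene is called open in a library that had such a peak and closed in a library without it. A peak gives accessibility and is no measure of transcription. Its height is given as the authors' fold enrichment over local background. Because peak height depends on depth, promoters were compared between libraries by the rank percentile of their -log10 p. This percentile was counted from the lowest (0) to the highest (100) of the promoters open in all 6 libraries. The lists held 88026 to 113675 peak regions in all libraries but SNDX-5613 replicate 3. That library held 40568 regions, and its background pileup, a relative measure of depth, was 16.2% of the median of the others. The part of this depth in promoters missing from that library was not tested. The labelled liver origin was checked at the promoters of 8 hepatocyte markers. Of these, FOXA3 was open in all 6 libraries, TTR and APOB were open in 5, SERPINA1 in 2, and ALB, APOA1, FGB and HNF4A were closed in all 6. The 3 mesenchymal markers VIM, CDH2 and COL1A1 were open in all 6, against 63.9% of all protein-coding genes. Of 3 biliary or progenitor markers, 2 were open in all 6 and 1 was closed in all 6. None of 2 leukocyte and 2 endothelial markers was open in all 6. Of the 8 hepatocyte promoters, 4 were thus closed throughout in these liver-derived cells, ALB among them, against 19.7% of all protein-coding genes. These counts use any annotated start. With only the canonical start of each gene, TTR and APOB had no peak in any library, and FOXA3 and COL1A1 were not open in all 6. Of the 3 biliary or progenitor markers, 1 was then open in all 6.

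Most P450 promoters were closed or only intermittently called. A promoter peak was present in all 6 libraries at 12 of the 55 members (21.8%), against 63.9% of all protein-coding genes. No library had a promoter peak at 27 members (49.1%), against 19.7% of all protein-coding genes. The remaining 16 members were open in 1 to 5 libraries. Without SNDX-5613 replicate 3, 16 members were open in each of the other 5 libraries, since CYP2S1, CYP4F12, CYP21A2 and CYP26A1 were missing from that library alone. The 12 members open throughout were CYP1B1, CYP2E1, CYP2J2, CYP2R1, CYP2U1, CYP3A5, CYP4F11, CYP4V2, CYP20A1, CYP27A1, CYP39A1 and CYP46A1. When only the canonical start of each gene was used, 11 members (20%) were open in all 6 libraries, against 58.7% of all genes, and the member lost was CYP2E1. When each list was reduced to its 40568 strongest regions, CYP4F11 and CYP27A1 left the set and 10 members stayed open in all 6. The 2 classes of families had nearly equal shares, with 8 of 36 members of families 1 to 4 (22.2%) and 4 of 19 members of families 7 and above (21.1%) open in all 6 libraries. The closed members were 17 of 36 (47.2%) and 10 of 19 (52.6%).

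**Figure D1:**
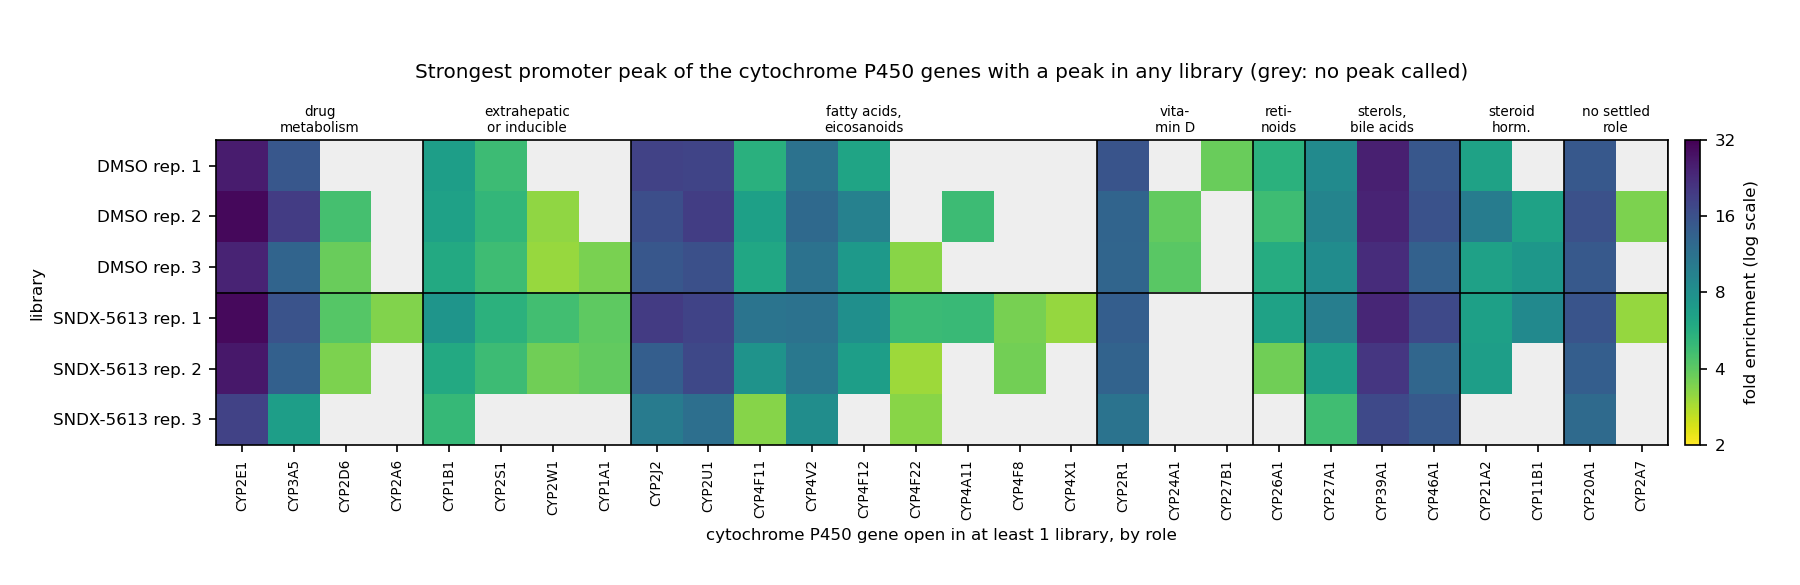
Fold enrichment (colour, log scale) of the strongest promoter peak of each of the 28 cytochrome P450 genes open in at least 1 library (columns, grouped by role) in the 6 libraries (rows), with grey where no peak was called. The 12 genes open in all 6 libraries form full columns, the other 16 columns have gaps, and the lowest row, SNDX-5613 replicate 3, has the fewest calls.

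The bases at these promoters are shown for the genes on which the contrast between open and closed members turns. CYP20A1 and CYP4V2 are shown as CpG-rich promoters open in all 6 libraries. CYP3A4 and CYP3A5 lie in the same cluster, with a closed promoter and an open one. CYP2E1 is shown at its canonical start, which was closed, and at its upstream peak, which was open. The first 5 stretches run from 250 bases before to 50 after the RefSeq start (GRCh38.p14), and the other 2 cover 300 bases around the strongest summit of a peak in hg38. All read 5′ to 3′ on the strand of the gene, and capitals mark CpG dinucleotides. The stretches lie at chr2:203238768-203239067 (plus strand), chr4:186191317-186191616 (plus), chr7:99784135-99784434 (minus), chr7:99679947-99680246 (minus), chr10:133527113-133527412 (plus), chr10:133520214-133520513 (plus) and chr7:99679072-99679371 (minus), in this order.
CYP20A1: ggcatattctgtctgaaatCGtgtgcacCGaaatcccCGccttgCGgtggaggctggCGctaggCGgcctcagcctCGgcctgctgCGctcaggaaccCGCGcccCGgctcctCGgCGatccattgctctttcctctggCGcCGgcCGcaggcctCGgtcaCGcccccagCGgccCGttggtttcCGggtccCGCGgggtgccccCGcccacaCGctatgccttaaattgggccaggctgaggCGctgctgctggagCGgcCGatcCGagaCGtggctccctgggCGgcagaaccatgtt
CYP4V2: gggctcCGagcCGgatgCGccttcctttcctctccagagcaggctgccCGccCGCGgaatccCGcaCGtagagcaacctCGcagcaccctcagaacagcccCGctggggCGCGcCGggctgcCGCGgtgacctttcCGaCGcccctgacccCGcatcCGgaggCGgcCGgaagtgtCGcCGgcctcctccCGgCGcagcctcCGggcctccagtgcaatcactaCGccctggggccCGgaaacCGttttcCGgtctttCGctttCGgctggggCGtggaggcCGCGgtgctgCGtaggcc
CYP3A4: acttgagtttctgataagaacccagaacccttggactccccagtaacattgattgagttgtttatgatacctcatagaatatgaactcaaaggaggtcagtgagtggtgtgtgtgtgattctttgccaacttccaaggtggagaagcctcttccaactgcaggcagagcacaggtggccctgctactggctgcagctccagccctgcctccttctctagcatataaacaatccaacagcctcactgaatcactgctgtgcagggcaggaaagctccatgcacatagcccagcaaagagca
CYP3A5: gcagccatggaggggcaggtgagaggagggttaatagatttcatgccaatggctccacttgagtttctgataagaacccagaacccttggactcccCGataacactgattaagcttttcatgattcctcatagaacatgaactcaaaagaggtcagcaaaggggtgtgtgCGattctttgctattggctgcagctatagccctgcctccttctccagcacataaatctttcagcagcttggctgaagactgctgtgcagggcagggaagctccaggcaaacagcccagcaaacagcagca
CYP2E1 canonical start: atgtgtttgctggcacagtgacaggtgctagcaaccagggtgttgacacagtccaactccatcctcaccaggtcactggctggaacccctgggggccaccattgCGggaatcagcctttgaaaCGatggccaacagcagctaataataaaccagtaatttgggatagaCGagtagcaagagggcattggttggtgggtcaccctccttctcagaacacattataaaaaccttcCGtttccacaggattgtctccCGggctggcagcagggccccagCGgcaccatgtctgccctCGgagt
CYP2E1 upstream peak: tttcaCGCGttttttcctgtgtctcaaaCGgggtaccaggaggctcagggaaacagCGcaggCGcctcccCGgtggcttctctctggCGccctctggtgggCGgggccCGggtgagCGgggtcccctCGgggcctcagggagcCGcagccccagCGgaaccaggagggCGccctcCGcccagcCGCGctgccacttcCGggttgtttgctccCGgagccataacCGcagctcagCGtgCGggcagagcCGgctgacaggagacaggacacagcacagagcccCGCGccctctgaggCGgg
CYP3A5 intronic peak: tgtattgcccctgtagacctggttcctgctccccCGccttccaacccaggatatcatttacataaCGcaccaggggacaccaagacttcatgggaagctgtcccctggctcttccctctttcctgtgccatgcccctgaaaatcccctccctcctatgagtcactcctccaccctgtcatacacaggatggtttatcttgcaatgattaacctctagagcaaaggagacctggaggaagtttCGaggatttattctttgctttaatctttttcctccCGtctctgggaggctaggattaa

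CYP20A1 and CYP4V2 hold 31 and 36 CpG dinucleotides in these 300 bases, whereas CYP3A4 holds 0 and CYP3A5 holds 2. The canonical start of CYP2E1 holds 7, and the open site upstream of it holds 26. The same property was counted at the canonical starts of all 55 members, in hg38, and set beside peaks within 1 kb of those starts. Promoters open in all 6 libraries had a median of 29 CpG (11 members), those open in 1 to 5 libraries had 10 (11 members), and closed ones had 3 (33 members). Over all protein-coding genes the medians were 28, 17 and 5, so the P450 promoters followed the same order as other genes. Of 20 members with 10 or more CpG, 9 (45%) were open in all 6 libraries, against 75.3% of all genes with such promoters. Of 35 members with fewer than 10 CpG, 2 (5.71%) were open in all 6, CYP3A5 and CYP4F11, against 10.3% of all genes with such promoters. Of the 20 CpG-rich members, 5 (25%) had no peak at the canonical start in any library, against 11.4% of all genes with such promoters. They were CYP7B1, CYP26B1, CYP26C1, CYP27C1 and CYP2W1.

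**Figure D2:**
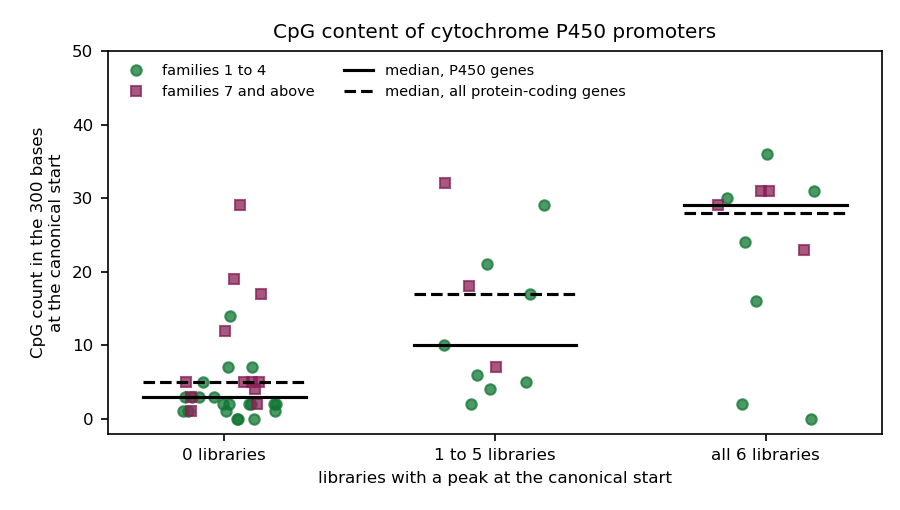
Number of CpG dinucleotides in the 300 bases at the canonical start (vertical axis) of each cytochrome P450 gene, by the number of libraries with a peak there (horizontal axis; points are genes, spread sideways for visibility). The medians of P450 genes (solid lines: 3, 10 and 29) rise with the number of libraries, as do those of all protein-coding genes (dashed lines: 5, 17 and 28).

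Short motifs were then searched on both strands of the same 300 bases. TATAAA, the core of the TATA box, was found at 21 of 55 members (38.2%), against 9.71% of all protein-coding promoters. It lay at 16 of the 33 closed members (48.5%), at 5 of the 11 open in 1 to 5 libraries, and at 0 of the 11 open in all 6. Over all genes it was also more frequent at closed promoters (20.7%) than at those open in all 6 (4.65%). GGGCGG, the GC box, showed the opposite order, at 9 of 11 members open in all 6 libraries and 5 of 33 closed ones, against 76.3% and 29.6% of all genes. CCAAT was found at 8 of 11 open members (72.7%) and 16 of 33 closed ones (48.5%), against 37.9% and 36.4% of all genes. GCGTG, the core bound by the dioxin receptor complex, was found at 17 of 55 members (30.9%), below the 45% of all promoters. TGANTCA, the AP-1 site, was found at 3 of 55 (5.45%), near the 5.43% of all promoters. A match is a run of letters and was not tested as a binding site.

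Most enzymes of hepatic drug metabolism were closed. Of 13 members, 9 (69.2%) were closed in all 6 libraries, against 49.1% of all 55 members and 19.7% of all protein-coding genes. Of the others, 2 were open in some libraries and 2 in all 6. The closed genes included CYP1A2, CYP2B6, CYP2C8, CYP2C18, CYP2C19, CYP3A4, CYP3A7 and CYP3A43, among them the main drug oxidase of adult liver, CYP3A4, and its fetal counterpart CYP3A7. CYP2D6, which oxidises many basic drugs, was open in 4 libraries, all but DMSO replicate 1 and SNDX-5613 replicate 3. Its main peak lay 1248 bp inside the gene, with fold enrichments of 3.44 to 4.55. CYP2A6, the nicotine oxidase, had a peak in SNDX-5613 replicate 1 alone, with a fold enrichment of 3.37. CYP2A6, CYP2A7 and CYP2A13, as well as CYP2D6 and CYP2D7, are near-identical copies, and peaks between them are uncertain because no filter on mapping quality was stated.

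CYP2E1, the ethanol-inducible enzyme, had the strongest peak of all members by fold enrichment. The peak lay at chr10:133520081-133520634, outside the main gene model, 7000 bp upstream of the canonical start and 43 bp from an alternative one. Over replicates 1 to 3, its fold enrichment was 26, 30.3 and 24.3 in the DMSO and 29.8, 26.7 and 18.6 in the SNDX-5613 libraries, the order kept for all genes. The canonical start had no peak within 1 kb in any of the 6 libraries. The call of CYP2E1 as open in all 6 libraries therefore rests on the upstream site, and a weak internal site was called in DMSO replicate 2 alone, at 3.04. CYP3A5, the member of the CYP3A cluster with broad expression outside the liver, was open through an intronic peak at chr7:99678924-99679563. The summit lay 775 bp inside the gene, and its fold enrichment was 15, 19.5 and 13.1 in the DMSO and 15.7, 13.7 and 6.8 in the SNDX-5613 libraries. A further weak peak 35 bp from the canonical start was called in DMSO replicate 1 and SNDX-5613 replicate 2. The intronic peak contains 1 TGANTCA match, which is absent from the 300 bases at the start of the gene.

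Of the 6 mainly extrahepatic or inducible members of families 1 and 2, 1 (16.7%) was open in all 6 libraries, 3 in some and 2 (33.3%) in none. Over all 55 members, 21.8% were open in all 6 and 49.1% in none, against 63.9% and 19.7% of all protein-coding genes. CYP1B1, which oxidises polycyclic hydrocarbons and estrogens, had 4 promoter sites. The main one, at chr2:38075910-38077391 beside the antisense gene CYP1B1-AS1, had fold enrichments of 6.76, 5.9 and 5.96 in the DMSO and 7.51, 5.47 and 5.01 in the SNDX-5613 libraries. ATAC-seq does not resolve strand, so this peak cannot be assigned to either gene. Another site, at a start 33791 bp upstream, was open in the 5 deeper libraries. The other 2 sites lay in coding exons and had summits within 1 kb of a start in DMSO libraries alone. The site at chr2:38074749-38075251 had fold enrichments of 2.53, 2.53 and 2.37 in DMSO replicates 1 to 3. The site at chr2:38070988-38071247 had 2.17 and 2.33 in DMSO replicates 2 and 3. Neither was a lost site as defined below. CYP2S1, an epithelial enzyme, was open in the 5 deeper libraries at fold enrichments of 4.72 to 5.37. CYP1A1, the classical target of the dioxin receptor, was open in 3 libraries at 3.51 to 3.98, namely 3.51 in DMSO replicate 3, 3.98 in SNDX-5613 replicate 1 and 3.89 in SNDX-5613 replicate 2. CYP2W1 was open in 4 libraries at an internal start 3169 bp into the gene, at 3.07 to 4.64. CYP2A13 and CYP2F1, enzymes of the airways, were closed in all 6.

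Enzymes of fatty acids and eicosanoids were the longest role list, with 4 of 14 (28.6%) open in all 6 libraries, 5 in some and 5 in none. The share open in all 6 was 21.8% over all members and 63.9% over all protein-coding genes. CYP2J2, which makes epoxides of arachidonic acid, had fold enrichments of 18.6, 16.5 and 15.1 in the DMSO and 19.8, 14 and 10.1 in the SNDX-5613 libraries. CYP2U1, a fatty acid hydroxylase, had fold enrichments of 11.6 to 19.3 over the 6 libraries, and its peak also lay 607 bp from the start of CYP2U1-AS1. CYP4V2, mutated in Bietti crystalline dystrophy, had 8.24 to 12.4. CYP4F11 was the weakest of the 4, with 5.51, 6.62 and 6.13 in the DMSO and 11, 7.74 and 3.3 in the SNDX-5613 libraries. CYP4F12 was open in the 5 deeper libraries at 6.34 to 9.51. CYP4A11, a hydroxylase of medium-chain fatty acids, was open in DMSO replicate 2 and SNDX-5613 replicate 1, at an internal start. CYP4X1 was open in SNDX-5613 replicate 1 alone. CYP4A22, CYP4B1, CYP4F2, CYP4F3 and CYP4Z1 were closed in all 6 libraries. CYP4A11 and CYP4A22, and the members of the CYP4F group, are close copies of each other, with the same uncertainty of mapping.

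The 3 enzymes of vitamin D metabolism each had a peak in at least 1 library, as did 16061 of all 20007 protein-coding genes. CYP2R1, the hepatic vitamin D 25-hydroxylase, had fold enrichments of 15.5, 13.1 and 12.9 in the DMSO and 13.9, 13.3 and 11.1 in the SNDX-5613 libraries. This peak covered chr11:14891104-14892534. CYP24A1, the enzyme that degrades active vitamin D, was open in 2 DMSO libraries, at 3.9 in replicate 2 and 4.07 in replicate 3. CYP27B1, the renal enzyme that makes active vitamin D, was open in DMSO replicate 1 alone, at 3.77. That peak lay 107 bp from an alternative start and 1500 bp from the canonical one, which had no peak within 1 kb in any library. Of the 4 enzymes of retinoids, CYP26A1, which degrades retinoic acid, was open in the 5 deeper libraries at 3.66 to 6.49. CYP26B1, CYP26C1 and CYP27C1 were closed in all 6.

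The enzymes of sterols and bile acids were divided without intermediate cases, with 3 of 6 (50%) open in all 6 libraries and 3 closed in all 6. The shares were 21.8% and 49.1% over all members, and 63.9% and 19.7% over all protein-coding genes. CYP39A1, an oxysterol 7-hydroxylase, had the second strongest promoter by fold enrichment, at chr6:46652625-46653473. Its values were 25.1, 24.4 and 22.4 in the DMSO and 23.7, 20.7 and 17.4 in the SNDX-5613 libraries. The summit lay 6 bp from a start of SLC25A27, so this peak is shared by both genes. CYP46A1, the cholesterol 24-hydroxylase known from brain, had 15, 15.9 and 13.5 in the DMSO and 17.4, 12.8 and 14.8 in the SNDX-5613 libraries. CYP27A1, the mitochondrial sterol 27-hydroxylase, had 4.67 to 9.15 at its canonical start, and a further site at an internal start was open in the 5 deeper libraries. CYP7A1, the rate-limiting enzyme of bile acid synthesis, CYP7B1 and CYP8B1 were closed in all 6.

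None of the 6 enzymes of steroid hormone synthesis was open in all 6 libraries, against 21.8% of all members and 63.9% of all protein-coding genes. CYP21A2, the adrenal 21-hydroxylase, was open in the 5 deeper libraries at 6.51 to 9.98, and CYP11B1, the adrenal 11-beta-hydroxylase, in 3 at 6.51 to 8.57. The CYP11B1 peak was intronic, 4920 bp from the canonical start and 892 bp from an alternative one. CYP11A1, CYP11B2, CYP17A1 and CYP19A1 were closed in all 6. CYP21A2 has a near-identical pseudogene, CYP21A1P, which was open in 3 libraries, and CYP11B1 and CYP11B2 are close copies, so these calls are uncertain. Among the 3 members without a settled role, CYP20A1 was open throughout, with 14.9, 16.1 and 14.8 in the DMSO and 15.5, 14 and 12.3 in the SNDX-5613 libraries. Its peak, at chr2:203238555-203239794, also lay 367 bp from the start of a long noncoding RNA. CYP2A7 was open in 2 libraries, DMSO replicate 2 and SNDX-5613 replicate 1, and CYP2D7 in none.

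Genes that serve or regulate the P450 enzymes were counted in the same way, against the 63.9% of all protein-coding genes open in all 6 libraries. All 7 partner genes (POR, CYB5A, CYB5B, CYB5R3, FDX1, FDXR and PGRMC1) were open in all 6 libraries. Of 12 regulators, AHR, ARNT, AHRR, VDR and RARA (41.7%) were open in all 6. NR1I2, the xenobiotic receptor that induces CYP3A4, the bile acid receptor NR1H4 and NR5A2 were closed in all 6. The 4 others, RXRA, NR1I3, NR0B2 and NR5A1, were open in 5, 4, 2 and 1 libraries.

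Gene bodies were examined next. Outside promoter windows, the members' bodies held 28, 47 and 34 peak regions in the DMSO and 48, 42 and 10 in the SNDX-5613 libraries. The means were 36.3 ± 9.71 and 33.3 ± 20.4 (SD, n = 3 each), and they differed by -3 regions, less than the replicates of either group varied (two-sided exact permutation p = 0.9, where 0.1 is the smallest p that 3 against 3 libraries allow). The difference was 8.67 regions without SNDX-5613 replicate 3 and 2.33 without DMSO replicate 2. Per 100 kb of gene body the means were 2.11 and 1.93 regions, against 3.11 and 2.35 over all protein-coding genes. CYP1B1 held the most, with 6, 9 and 4 regions in the DMSO and 6, 4 and 0 in the SNDX-5613 libraries. CYP27C1, whose promoter was closed, held 2, 4 and 3 regions in the DMSO and 5, 5 and 0 in the SNDX-5613 libraries. CYP2S1 held 2, 3 and 4 and then 1, 3 and 1, and CYP7B1 held 1, 3 and 1 and then 3, 1 and 0, in the same order. For each of these 4 genes the groups overlapped, and SNDX-5613 replicate 3 held the lowest count or tied for it. CYP2J2 held 2 regions in each of the 6 libraries. At 18 members no body region was called in any library, among them CYP1A2, CYP2C8, CYP2C18, CYP3A4 and CYP7A1.

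Regions of the 6 libraries were merged into sites, and 116 sites lay at the members. Of these, 19 (16.4%) were present in all 6 libraries, against 23.3% of the sites at protein-coding genes and 20.1% of the 166021 sites of the genome. These 19 were the promoter sites of the 12 open members and 7 sites in gene bodies. Of the body sites, 2 were in CYP2J2 introns and 1 each in CYP2S1, CYP2F1, CYP3A43, CYP17A1 and CYP26B1. The last 4 genes had no peak within 1 kb of a start, so that a site open in all 6 libraries lay inside a gene whose start was closed. With a promoter window of 2 kb, however, CYP17A1 counted as open in all 6 libraries. In CYP17A1 the site lay in an intron 2290 bp from the canonical start, with fold enrichments of 18, 19.8 and 19.1 in the DMSO and 19, 19.4 and 7.18 in the SNDX-5613 libraries. In CYP26B1, which clears retinoic acid, it lay 10211 bp inside the gene at 10.7 to 18. In CYP3A43 it lay 32392 bp inside the gene at 5.56 to 14.5, and in CYP2F1 it lay in a coding exon at 6.47 to 13.6. The site in CYP2S1, 11239 bp inside the gene, had 6.95 to 25.4 and exceeded that gene's own promoter peak in each of the 5 libraries with such a peak. The 7 body sites had a median of 4 CpG in the 300 bases around the summit, near the 5 of all sites in the genome away from starts. TGANTCA was found at 2 of them (28.6%), near the 28.3% of those sites.

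Many members lie in clusters of related genes, and the clusters differed in accessibility. The CYP2C cluster covers 386 kb of chromosome 10. It held 1, 1 and 1 regions in the DMSO and 2, 2 and 1 in the SNDX-5613 libraries, a mean of 0.346 regions per 100 kb, against 2.93 over the genome. None of its 3 sites was present in all 6 libraries. The CYP4A, CYP4B, CYP4X and CYP4Z cluster held 1.57 regions per 100 kb and also had 0 of its 20 sites in all 6 libraries. The CYP3A and CYP4F clusters were close to the genome mean, with 3.06 and 2.62. The cluster from CYP2A to CYP2S on chromosome 19 held 6 regions per 100 kb, and 7 of its 46 sites were present in all 6 libraries, although 0 of its 6 members had a promoter open in all 6. These counts include regions at other genes inside the clusters. For the 27 closed members, the distance from the start to the nearest site open in all 6 libraries had a median of 50971 bp and ranged from 1848 to 835168 bp, against a median of 32256 bp for other closed genes.

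**Figure D3:**
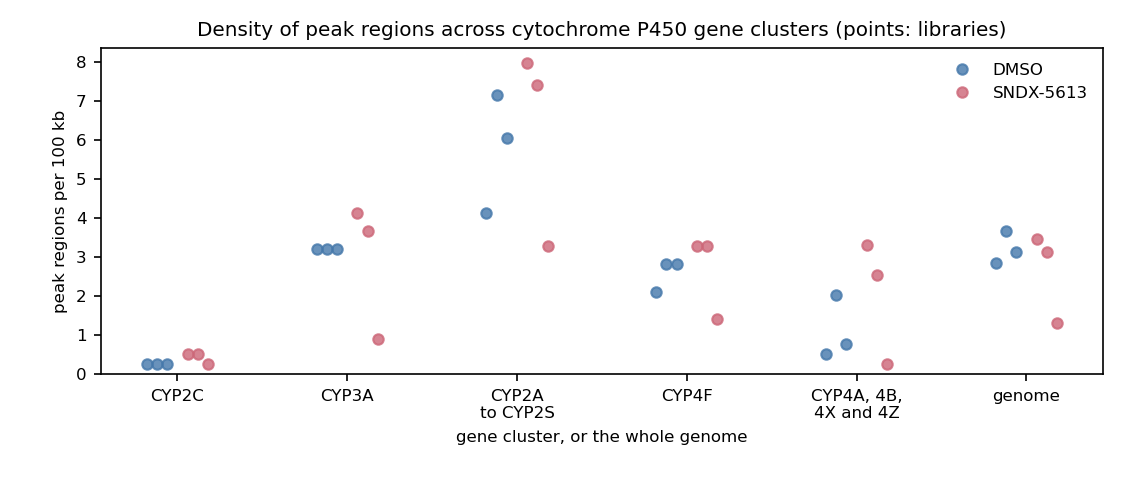
Peak regions per 100 kb (vertical axis) in 5 cytochrome P450 gene clusters and over the genome (horizontal axis), with 1 point per library in DMSO (blue) and SNDX-5613 (red). The CYP2C cluster lies below the genome in each library, and the lowest SNDX-5613 point elsewhere is replicate 3.

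Whether menin inhibition altered the P450 promoters was asked from the number of open members in each library. It was 17, 22 and 22 in the DMSO libraries, a mean of 20.3 ± 2.89, and 26, 21 and 13 in the SNDX-5613 libraries, a mean of 20 ± 6.56 (SD, n = 3 each). The difference of -0.333 genes was smaller than the spread between replicates (two-sided exact permutation p = 1). SNDX-5613 held both the highest and the lowest library, and the lowest was replicate 3. Without SNDX-5613 replicate 3 the difference was 3.17 genes (two-sided exact permutation p = 0.6), and it was 0.5 without DMSO replicate 2 or 3.

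The contrast between family classes was compared in the same way. The share of open members in families 1 to 4 minus that in families 7 and above was -9.06, -3.22 and -3.22 percentage points in the DMSO libraries. It was 15.9, 10.1 and 3.95 percentage points in the SNDX-5613 libraries. The groups did not overlap, and the difference of 15.2 percentage points reached the smallest p the design allows, 0.1, which is above 0.05 (two-sided exact permutation test). Families 1 to 4 had 10, 14 and 14 open members in the DMSO and 19, 15 and 9 in the SNDX-5613 libraries (two-sided exact permutation p = 0.8). Families 7 and above had 7, 8 and 8 and then 7, 6 and 4 (p = 0.2, same exact permutation test). The contrast was smaller, and the groups no longer separate, in 3 other settings. With the 40568 strongest regions of each library it was 3.65 percentage points in each DMSO library and 6.43, 3.65 and 3.95 in the SNDX-5613 libraries, a difference of 1.02 (two-sided exact permutation p = 0.4). It was 3.31 with a promoter window of 2 kb (p = 0.6, same exact permutation test). With only summits at a -log10 q of at least 3 it was 7.94 (p = 0.2, same exact permutation test).

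**Figure D4:**
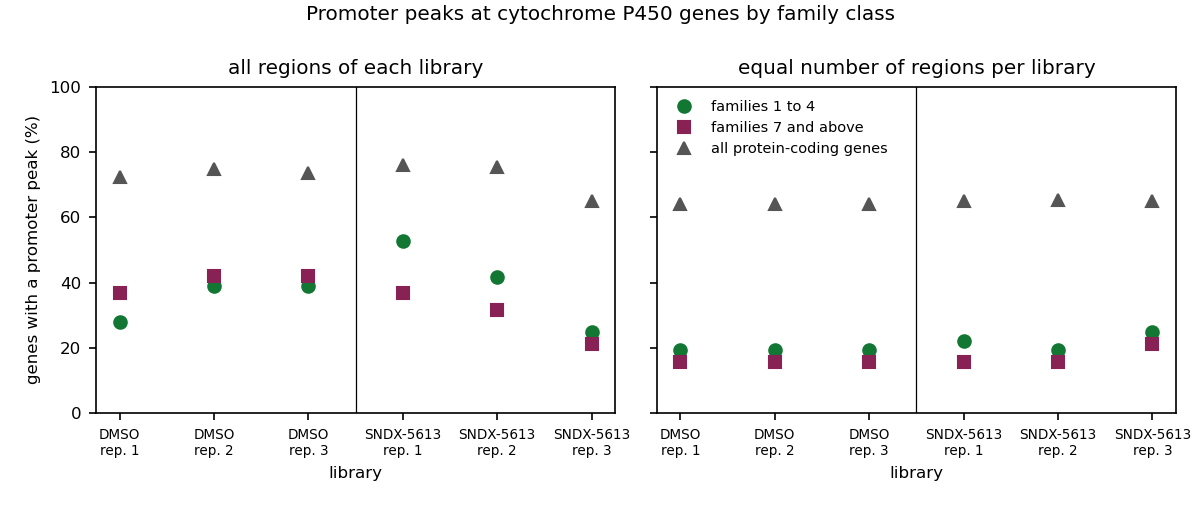
Percent of genes with a promoter peak (vertical axis) in each library (horizontal axis) for P450 families 1 to 4, P450 families 7 and above, and all protein-coding genes, with all regions (left) and with the 40568 strongest regions of each library (right). Families 1 to 4 lie below families 7 and above in the 3 DMSO libraries and above them in the 3 SNDX-5613 libraries on the left, whereas on the right they lie above them in all 6.

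Several members whose calls differed between the groups had weak peaks. A promoter peak was present in at least 2 more SNDX-5613 than DMSO libraries at 2 of 55 members (3.64%), against 1.25% of all genes. These were CYP4F8, open in 0 DMSO and 2 SNDX-5613 libraries, and CYP4F22, open in 1 and 3. CYP4F8, a prostaglandin hydroxylase of the seminal vesicle, had a fold enrichment of 3.54 in SNDX-5613 replicate 1, 3.59 in SNDX-5613 replicate 2 and no peak elsewhere. CYP4F22, which makes ceramides of the skin barrier, had 3.27 in DMSO replicate 3 and 4.83, 3.01 and 3.27 in the SNDX-5613 libraries. The 3.01 in SNDX-5613 replicate 2 came from a separate site 909 bp upstream of the start, called in that library alone. The site at the start was called in DMSO replicate 3 and in SNDX-5613 replicates 1 and 3, so the count for CYP4F22 pools 2 sites. The opposite pattern was found at 1 member (1.82%), CYP24A1, open in 2 DMSO and 0 SNDX-5613 libraries, against 0.985% of all genes. With CYP27B1, this left 2 open vitamin D genes in each DMSO library and 1 in each SNDX-5613 library (two-sided exact permutation p = 0.1, the smallest possible, with no adjustment over the 8 roles). With canonical starts the same exact permutation test gave p = 0.4, and with a -log10 q of at least 3 or equal numbers of regions it gave p = 1. These 4 genes had a -log10 p of 3.64 to 6.94, near the lowest value called anywhere in the lists, 3.2. Stronger peaks also entered the family contrast. CYP21A2, with a -log10 p of 10.2 to 20.3, and CYP26A1, with 6.01 to 14.1, were missing from SNDX-5613 replicate 3 alone. CYP11B1, with 10.9 to 16.4, was open in 2 DMSO libraries and 1 SNDX-5613 library, through an intronic peak 892 bp from an alternative start. Its canonical start, 4920 bp away, had no peak within 1 kb in any library.

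Promoters open throughout were compared by the rank of their -log10 p. Of the 12790 genes open in all 6 libraries, limma called 0 higher and 0 lower in SNDX-5613 at a Benjamini-Hochberg adjusted p under 0.05 (0% in each direction), and 0 of the 12 members. At an unadjusted p under 0.05 there were 1009 genes (7.89%) and 0 members. CYP20A1 ranked highest among the members, at percentiles of 92.8, 89.4 and 92.7 in the DMSO and 85.4, 90.8 and 86 in the SNDX-5613 libraries, and the groups overlapped. CYP2E1 ranked at 78.1, 82.3 and 67.1 in the DMSO and 84.1, 83 and 90.8 in the SNDX-5613 libraries, and the groups did not overlap. Its mean percentile was 75.9 ± 7.84 and 86 ± 4.21 (SD, n = 3 each), and its normal score differed by 0.378 ± 0.197 (SE, limma adjusted p = 0.644). It was the 1 member of 12 with all SNDX-5613 ranks above DMSO, a pattern found in 7.51% of all genes. The opposite pattern was found at 0 members and in 6.9% of all genes.

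CYP39A1 ranked at percentiles of 91.1, 70.5 and 74.2 in the DMSO and 79.6, 77.7 and 91 in the SNDX-5613 libraries. CYP2R1 ranked at 93, 59.1 and 72.3 and then at 78.9, 84.7 and 78.3, in the same order. CYP46A1 ranked at 79.3, 68.9 and 57.1 in the DMSO and 86.6, 60.5 and 93.6 in the SNDX-5613 libraries. The groups overlapped for all 3, and CYP2R1 spanned 59.1 to 93 within the DMSO group alone. CYP2J2 had the lowest adjusted p of the members, 0.643 by limma, with a normal score higher by 0.401 ± 0.209 (SE) in SNDX-5613, and its groups overlapped. This difference changed sign when peaks were ranked by fold enrichment. CYP2U1 and CYP4V2 had mean percentiles of 37.3 and 28.4. CYP2J2, CYP3A5, CYP1B1, CYP27A1 and CYP4F11 lay between 14.7 and 1.32, low among the promoters open throughout by -log10 p. Fold enrichment gave another order for CYP2J2 and CYP3A5. In the DMSO libraries they had 18.6, 16.5 and 15.1, and 15, 19.5 and 13.1, against 14.9, 16.1 and 14.8 for CYP20A1. CYP1B1, CYP27A1 and CYP4F11 were below CYP20A1 in fold enrichment too.

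**Figure D5:**
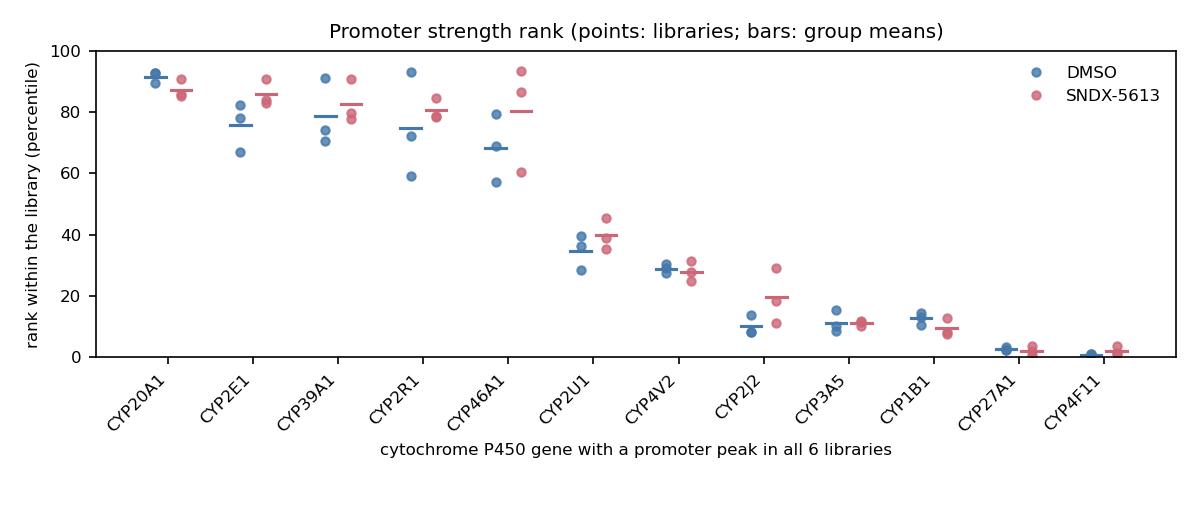
Rank of the promoter by -log10 p within its library, as a percentile (vertical axis), for the 12 cytochrome P450 genes open in all 6 libraries (horizontal axis). Points are libraries and bars are group means. Of the 12 genes, 5 lie at a mean percentile of 74.3 or above and the other 7 at 37.3 or below, and the DMSO and SNDX-5613 points overlap at all but CYP2E1.

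Sites were also compared for presence. A gained site had a peak in all 3 SNDX-5613 and 0 DMSO libraries, and a lost site the opposite. Of the 116 sites at members, 0 were gained and 0 were lost, against 0.147% and 1.18% of all sites. At protein-coding genes the shares were 0.0995% and 1.23%. Without SNDX-5613 replicate 3, 5 of 114 sites (4.39%) were gained, against 2.43% of all sites, and 0 were lost, against 1.23%. Of the sites at protein-coding genes, 1.84% were then gained and 1.28% lost. The 5 gained sites at members were the promoter site of CYP4F8 and body sites of CYP4Z1, CYP27C1, CYP11B1 and CYP11B2 (the last 2 are close copies of each other). Their -log10 p lay between 3.75 and 11.1 in the remaining SNDX-5613 libraries. In the consensus sets, which the authors built from the replicates of each group, 20 members (36.4%) had a region overlapping the promoter window in the DMSO set and 23 (41.8%) in the SNDX-5613 set, against 73.4% and 74.8% of all genes. Both sets held 19 members, with CYP24A1 in the DMSO set alone and CYP2W1, CYP4F3, CYP4F8 and CYP4F22 in the SNDX-5613 set alone. The lists of single libraries differ from this at 2 of these genes. CYP2W1 was open in 2 libraries of each group, and CYP4F3 had no promoter peak and no site in any library.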

How the data were processed

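ATAC-seq peak lists of 6 libraries (3 DMSO, 3 SNDX-5613) were analysed, grouped by their labels. Nuclei had been taken through Omni-ATAC, and the authors mapped reads with Bowtie2. Picard marked duplicates and RMSPC joined the replicates of a group. The submitters' processing notes name Trim Galore 0.6.7, Bowtie2 2.3.4.1, Picard 2.20.0 and MACS 2, with hg38. A Tn5 shift, a mapping quality filter and a blacklist are not given in the sources used here, and unfiltered reads can place peaks in repeated genes. The authors tested read counts with DESeq2, which was not repeated because read counts were not analysed here.

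Each deposited list gives the authors' fold enrichment (a ratio over local background), −log10 p and −log10 q per summit. From the deposited consensus sets, which carry a combined −log10 p from the authors, positions alone were taken. Summits were matched to GENCODE release 44 on chromosomes 1 to 22, X and Y, and regions that shared 1 bp or more were joined into sites.

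Promoter strength was ranked within each library by −log10 p over the 12790 genes open in all 6, turned into normal scores and fitted with limma 3.58.1 in R 4.3.3, with Benjamini-Hochberg adjustment over all genes. The fit was tested on simulated data with shifts larger than the difference of any member, which does not show whether smaller changes would be called. Library values were tested between groups by two-sided exact permutation in Python 3.11.15, with 10 distinct arrangements. Depth is known only as a relative background pileup, from 0.211 to 1.51. Every member with a promoter peak was named. Values in every library were given for members called by limma, the 5 with the highest mean rank, those open in 2 or more libraries more of 1 group, and the 5 with most body regions. Sequences of 55 members and 20006 genes at canonical starts were read from hg38, and printed promoters came from RefSeq. Some genes of the lists are not reported here by name. Members and lists were chosen with earlier results of these data known. Alternatives were a −log10 q of at least 3, equal numbers of regions, windows of 500 bp and 2 kb, canonical starts, overlap in place of summits, other measures of strength, a replicate block and each library left out.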

Additional observations from a re-analysis of the deposited data

How the results depend on the processing

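The number of members open in all 6 libraries stayed between 10 and 13 under all settings that kept every library, and between 12 and 16 when 1 was left out, the 16 without SNDX-5613 replicate 3. None of the 14 alternative limma fits called a member, while 8, 4 and 2 genes of the genome were called with a −log10 q of at least 3, with a window of 500 bp and without SNDX-5613 replicate 3. The difference in open members, -0.333 genes, reversed to 1.33 at equal numbers of regions, and leaving out each library gave -3.33 to 3.17, with 0.5 without DMSO replicate 2 or 3 and 3.17 without SNDX-5613 replicate 3. The difference in body regions, -3, reversed to 0.333 at equal numbers of regions, and leaving out each library gave -10.3 to 8.67, with 2.33 without DMSO replicate 2 and 8.67 without SNDX-5613 replicate 3. The family contrast kept its direction in all 13 alternatives, but its size fell from 15.2 percentage points to 1.02 at equal numbers of regions, 3.31 with a window of 2 kb and 7.94 with a −log10 q of at least 3, and ran from 12.2 to 18.2 when each library was left out. Gained sites at members numbered 0 to 5 and lost sites 0 to 2 when each library was left out, with 1 gained without SNDX-5613 replicate 1 and 2 lost without DMSO replicate 1 or SNDX-5613 replicate 1. The cause of these changes was not tested.

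The normal score differences of 6 members were recomputed under 9 alternatives each, 54 values in all, and 0 were called. Ranked by fold enrichment, CYP20A1 changed sign from -0.233 to 0.161 and CYP2J2 from 0.401 to -0.0529. With quantile-normalised log2 fold enrichment they were 0.0742 and -0.0276. Leaving out each library, CYP2R1 (0.103) ran from -0.164 without DMSO replicate 2 to 0.458 without DMSO replicate 1. CYP39A1 (0.133) ran from -0.0497 without SNDX-5613 replicate 3 to 0.382, and was -0.0198 without DMSO replicate 2. CYP2E1 and CYP46A1 kept their sign in all 9 settings each.

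The study describes each replicate as a dish divided between the groups, but libraries of the same number did not deviate together over genes (correlations of 0.0257, -0.012 and -0.00355), so the main tests are unpaired. With a replicate block limma called 0 members and 0 genes. Taken as pairs, the family contrast of 15.2 had an exact sign-flip permutation p of 0.25, the smallest that 3 pairs allow. The difference in open members of -0.333 had p = 1 and that in body regions of -3 had p = 0.75 in the same exact test. Depth and the number of libraries limit these comparisons. SNDX-5613 replicate 3 has 16.2% of the median background pileup of the others, and with 3 libraries per group no permutation test can fall below 0.1.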

Other observations

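The annotation also lists 49 pseudogenes of the P450 family. None had a promoter peak in all 6 libraries, 39 had none in any library and 10 had one in 1 to 5 libraries. CYP3A51P in the CYP3A cluster was open in 4 libraries, with −log10 p values of 43.8 and 32.3 in 2 DMSO libraries and of 27.2 and 27.7 in 2 SNDX-5613 libraries. CYP4F24P and CYP4F60P were each open in 5 libraries. Pseudogenes are close copies of their parent genes, and the origin of the reads in these peaks was not tested.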
